A study of Rattus norvegicus and Sus scrofa and Bos taurus with 188 samples.

Results

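Transcripts of 10 genes that remove or add methyl groups at lysine 4 of histone H3 (H3K4) were described in pig morulae: the demethylase genes KDM1A, KDM1B, KDM5A, KDM5B and KDM5C, and the methyltransferase complex genes KMT2C, SETD1A, SETD1B, ASH2L and DPY30. They were taken by gene name from a deposited table of 15877 gene names, in which all 10 were found, with 36 of its 37571 transcript rows. The series profiles DNA methylation, histone marks and RNA in eggs, sperm-free or fertilised embryos and other cells of several mammals, with 188 samples here. The values below come from 1 of its groups, 4 Smart-seq2 libraries of pig morulae, a method that copies the polyadenylated RNA of few cells. Their titles carry the mark PG, which the labels of sister samples use for embryos that were parthenogenetically activated, that is, started from an egg without sperm. Strain, culture time and the number of embryos in a library are not given in the sources used here. No second group was analysed here, so no value has a baseline in fertilised embryos or at another stage.

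Methylation of H3K4 marks active or poised regulatory DNA: trimethylation lies over promoters and monomethylation over enhancers. It is written by complexes in which 1 catalytic subunit of the KMT2 or SETD1 type joins a core of shared subunits, ASH2L and DPY30 among them, that raises its activity. It is removed by KDM1 enzymes, flavin-dependent oxidases that act on mono- and dimethylated lysine, and by KDM5 enzymes, which use iron and 2-oxoglutarate and act on di- and trimethylated lysine. In mouse, oocytes carry broad domains of H3K4 trimethylation that are removed in the early embryo, a step to which KDM5 enzymes contribute, and KDM1B is needed in growing oocytes for the methylation of maternal imprints.

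The authors merged the 4 libraries into 1 column of FPKM, a fragment count divided by the length of the transcript and by the total of the library, with 1 row per Ensembl transcript. There is therefore no replicate spread and no test for any value, and the depth is unknown. A gene's level here is the sum of its rows, and a gene at 1 FPKM or more was counted as expressed. Of all gene names in the table, 50.6% were so counted. All 8 markers listed for early embryos were expressed, from 5.36 FPKM for SOX2 to 193.6 FPKM for TFAP2C, with a summed level of 520.1 FPKM. This list and the next were chosen with earlier results of these data known, so neither tests the identity of the samples. Of 10 measured markers of cumulus cells, the ovarian cells around the egg, 2 were expressed: NR5A2 at 22.1 FPKM and CYP19A1 at 1.06 FPKM. By the highest row CYP19A1 stood at 0.835 FPKM, which left NR5A2 alone. The highest of the remaining markers stood at 0.306 FPKM. These 10 summed to 23.8 FPKM, with FSHR, FOXL2 and TNFAIP6, the last named after its value was seen, listed at 0. Most of the cumulus sum was thus NR5A2, and whether its transcripts came from cumulus cells or from the embryo was not tested. The part of other cells in the levels below was not tested.

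Of the 10 genes, 9 were expressed, against 50.6% of all gene names in the table, and SETD1B was the exception. The levels spanned 252-fold. In order, DPY30 stood at 160.2 FPKM, KDM5B at 22.3 FPKM, ASH2L at 17.1 FPKM, KDM1A at 12.8 FPKM and KDM5A at 9.56 FPKM. KDM1B followed at 4.31 FPKM, KMT2C at 4.09 FPKM, KDM5C at 2.49 FPKM, SETD1A at 2.36 FPKM and SETD1B at 0.635 FPKM. The largest steps were those from DPY30 to KDM5B, 7.17-fold, and from SETD1A to SETD1B, 3.71-fold. KDM1B exceeded KMT2C by 1.06-fold, as KDM5C did SETD1A. These ratios were 2.29 and 1.09 by the highest row. Without replicate values it cannot be said which neighbours in this order differ.

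The 10 genes had a median of 6.93 FPKM (4.24 FPKM by the highest row), against 1.06 FPKM over all gene names and 7.95 FPKM over the 8032 expressed ones. Together they held 235.8 FPKM, or 0.0773% of the FPKM of the table, and DPY30 alone held 67.9% of that sum. The 5 highest lay above the median of the expressed genes and the other 5 below it. At a threshold of 5 FPKM, which 31.1% of gene names reached, 5 of the 10 genes counted as expressed. At 0.5 FPKM, which 57.9% of gene names reached, all 10 did. By the highest row in place of the sum, 9 of the 10 genes and 48.8% of gene names reached 1 FPKM. With the table scaled to a total of 1000000, all 10 and 62.5% of gene names reached 1.

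**Figure D1:**
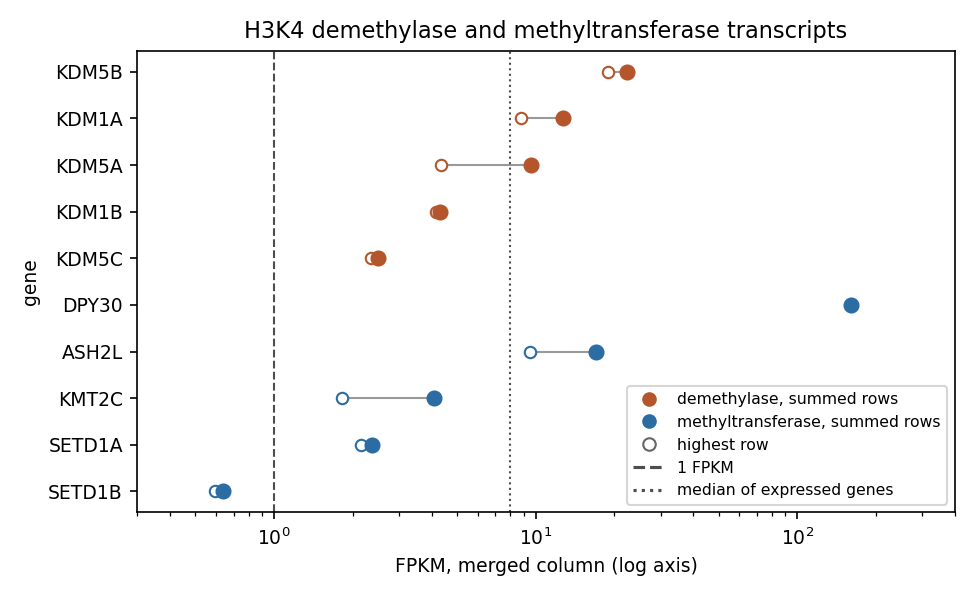
FPKM of each gene on a log axis, as the sum of its transcript rows (filled) and as its highest row (open), with demethylase genes above methyltransferase complex genes. KDM5B leads the demethylases at 22.3 FPKM, DPY30 stands apart at 160.2 FPKM, and SETD1B at 0.635 FPKM is the one gene left of the dashed line at 1 FPKM. The dotted line marks the median of the expressed genes, 7.95 FPKM.

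All 5 demethylase genes were expressed, between 2.49 and 22.3 FPKM, with a median of 9.56 FPKM and a sum of 51.4 FPKM. Their range was narrow beside that of the methyltransferase complex genes: none reached the level of DPY30 and none fell to that of SETD1B. KDM5B supplied 43.4% of the sum.

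Among the KDM5 genes, which encode the JmjC enzymes that act on trimethylated H3K4, KDM5B stood highest. Its 22.3 FPKM were 2.34 times the 9.56 FPKM of KDM5A and 8.97 times the 2.49 FPKM of KDM5C, so that KDM5B made up 65.0% of the family's 34.4 FPKM. KDM5B ranked 2128 from the top and exceeded 86.6% of gene names, KDM5A ranked 3687 (76.8%) and KDM5C ranked 6371 (59.9%). KDM5C is X-linked in mammals, and its Y-linked counterpart KDM5D was listed at 0. The row of KDM5D lies in a closing stretch of 474 rows that are all at 0, so nothing is said of its expression.

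KDM5B had 2 transcript rows. ENSSSCT00000011960.3 stood at 18.9 FPKM and ENSSSCT00000029047.2 at 3.44 FPKM, so the higher row held 84.6% of the gene. KDM5A was divided more evenly than any other demethylase gene here. Its 3 rows, ENSSSCT00000022573.2, ENSSSCT00000023353.2 and ENSSSCT00000044526.1, stood at 4.32, 3.14 and 2.10 FPKM, each above 1 FPKM, and the highest held 45.2%. By the highest row alone KDM5B would exceed KDM5A by 4.37-fold. KDM5C lay almost wholly in 1 of its 5 rows: ENSSSCT00000041364.1 at 2.34 FPKM held 94.0%, ENSSSCT00000032687.2 stood at 0.150 FPKM, and the other 3 were at 8.65e-05 FPKM or lower.

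Of the KDM1 genes, which encode the flavin-dependent oxidases, KDM1A stood at 12.8 FPKM and KDM1B at 4.31 FPKM, a ratio of 2.96. KDM1A, the catalytic subunit of the CoREST repressor complex, made up 74.7% of the pair and exceeded 80.5% of gene names, at rank 3104. KDM1B, the oxidase known from mouse oocytes, exceeded 66.8% of gene names, at rank 5269.

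KDM1A had 3 rows, of which ENSSSCT00000003923.3 at 8.75 FPKM held 68.6% and ENSSSCT00000062834.1 at 3.95 FPKM held 30.9%. The third, ENSSSCT00000003922.3, stood at 0.0555 FPKM. KDM1B had 5 rows and was the most concentrated of the 9 genes with several rows: ENSSSCT00000001169.3 at 4.16 FPKM held 96.6%. Its next row, ENSSSCT00000036868.1, stood at 0.147 FPKM, and the other 3 at 0.000397 FPKM or lower. By the highest row alone the ratio of KDM1A to KDM1B would be 2.10.

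The partners of the KDM1 enzymes covered a wider range than the enzymes. Of 15 listed, 14 were measured and 8 (57.1%) were expressed, near the 50.6% of all gene names. The highest were the SNAG-type repressor gene GFI1B at 102.4 FPKM, the deacetylase genes HDAC2 at 101.3 FPKM and HDAC1 at 29.0 FPKM, and HMG20B at 9.82 FPKM. HDAC2 stood 7.94 times and HDAC1 2.27 times as high as KDM1A, but these deacetylases also belong to other complexes. Of the CoREST scaffold genes, which tether KDM1A to nucleosomes, RCOR3 stood at 3.21 FPKM, below KDM1A by a ratio of 3.97 by summed rows and 6.42 by the highest row, and RCOR2 at 0.0493 FPKM. RCOR1 and MTA1 were listed at 0 in the closing stretch of zeros, with no statement on their expression. GLYR1, a cofactor of KDM1B, stood at 2.31 FPKM, so KDM1B exceeded it by 1.87-fold. RCOR2, RCOR3 and GLYR1 are named here after their values were seen.

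The 5 methyltransferase complex genes covered the whole range of the 10, from 0.635 to 160.2 FPKM, with a median of 4.09 FPKM. They split by role. The 3 catalytic genes stood at 4.09 FPKM or lower, with a sum of 7.08 FPKM (4.56 FPKM by the highest row), whereas the core subunit genes ASH2L and DPY30 stood at 17.1 FPKM or higher, with a sum of 177.2 FPKM. On the log2(FPKM + 1) scale the median of the catalytic genes minus that of the core subunit genes was -4.01. Without DPY30 this difference was -2.43.

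KMT2C, which writes mainly monomethylation at enhancers, was the highest catalytic gene at 4.09 FPKM, above 66.2% of gene names at rank 5368. Its level was spread over more rows than that of any of the other 9 genes. Of 8 rows, ENSSSCT00000025866.2 stood at 1.82 FPKM (44.5%), ENSSSCT00000050452.1 at 1.29 FPKM (31.6%), ENSSSCT00000043259.1 at 0.637 FPKM (15.6%) and ENSSSCT00000053377.1 at 0.341 FPKM (8.36%). The remaining 4 were at 0.000284 FPKM or lower. By the summed rows KMT2C exceeded SETD1A by 1.74-fold, but by the highest row alone the ratio was 0.848 and the order of these genes turned.

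SETD1A and SETD1B encode the catalytic subunits of the complexes that write H3K4 trimethylation at promoters. SETD1A stood at 2.36 FPKM, above 59.2% of gene names at rank 6473, and SETD1B at 0.635 FPKM, above 44.4% at rank 8822. SETD1B was the only one of the 10 below the median gene name of the table, 1.06 FPKM. The ratio of SETD1A to SETD1B was 3.71 by summed rows and 3.61 by the highest row. Both lay mostly in 1 row: ENSSSCT00000040537.1 at 2.14 FPKM held 91.1% of SETD1A, and ENSSSCT00000060701.1 at 0.593 FPKM held 93.4% of SETD1B. The next rows were ENSSSCT00000008529.3 at 0.145 FPKM and ENSSSCT00000039413.1 at 0.0653 FPKM for SETD1A, and ENSSSCT00000056286.1 at 0.0418 FPKM for SETD1B. The last row of SETD1A was at 1.17e-06 FPKM and that of SETD1B at 5.62e-06 FPKM.

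ASH2L, which binds the catalytic domain together with RBBP5, stood at 17.1 FPKM, above 83.7% of gene names at rank 2595. Its rows were nearly equal, with ENSSSCT00000023044.2 at 9.55 FPKM (56.0%) and ENSSSCT00000048058.1 at 7.51 FPKM. ASH2L stood 4.17 times as high as KMT2C and 7.24 times as high as SETD1A by summed rows, and 5.25 and 4.45 times by the highest row. DPY30, a small protein that binds ASH2L as a dimer, had the single row ENSSSCT00000009320.3 at 160.2 FPKM, above 98.0% of gene names at rank 316. DPY30 stood 9.39 times as high as ASH2L by summed rows and 16.8 times by the highest row.

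**Figure D2:**
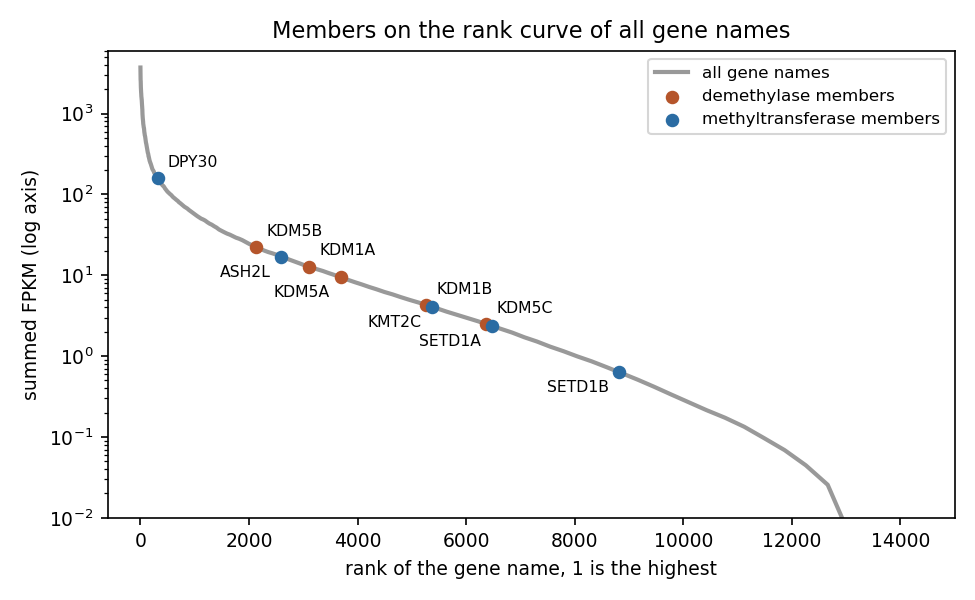
Summed FPKM of all gene names (grey, log axis) against their rank from the top, with demethylase genes and methyltransferase complex genes marked. DPY30 lies at rank 316, the other 8 expressed genes between ranks 2128 and 6473, and SETD1B at rank 8822 of 15877.

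The core subunits not among the 10 genes stood between ASH2L and DPY30 in level. WDR5, which docks the catalytic subunit, stood at 27.6 FPKM and RBBP5 at 19.6 FPKM, 1.62 and 1.15 times the level of ASH2L by summed rows and 2.88 and 2.05 times by the highest row. DPY30 stood 5.81 times as high as WDR5. In all, 11 of 16 other subunits listed for these complexes were measured, and all 11 were expressed, against 50.6% of all gene names. The highest were WDR82, a subunit of the SETD1 complexes, at 53.3 FPKM, PSIP1 at 42.8 FPKM, WDR5 and RBBP5. The lowest were PAXIP1, a subunit of the KMT2C complex, at 1.53 FPKM and MEN1 at 1.17 FPKM. By the highest row PAXIP1 stood at 0.892 FPKM, which left 10 of 11.

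The subunits bound to particular catalytic proteins did not share 1 level. Of the partners of SETD1A and SETD1B, WDR82 stood 22.6 times as high as SETD1A, and CXXC1, which directs these complexes to unmethylated CpG sites, stood at 1.88 FPKM, or 0.798 of SETD1A. Of the partners of KMT2C, the H3K27 demethylase gene KDM6A stood at 5.00 FPKM, or 1.22 times KMT2C by summed rows and 2.75 times by the highest row, and NCOA6 at 2.29 FPKM. CXXC1, KDM6A and NCOA6 are named here after their values were seen. The genes KMT2A, KMT2B and KMT2D, which encode further catalytic subunits, were not analysed here, so the catalytic sum of 7.08 FPKM covers KMT2C, SETD1A and SETD1B only.

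**Figure D3:**
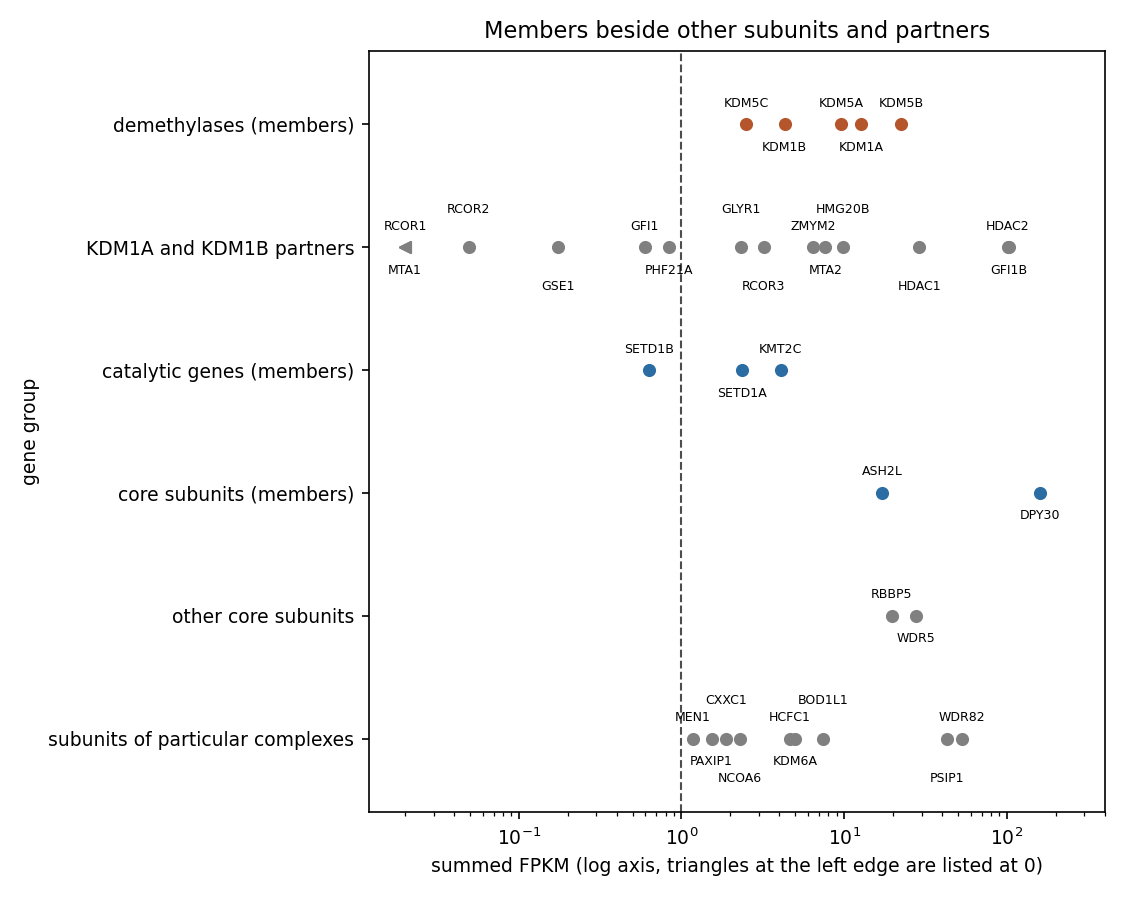
Summed FPKM (log axis) of the demethylase genes, their partners, the catalytic and core subunit genes of the methyltransferase complexes, and other subunits, with the dashed line at 1 FPKM. DPY30 at 160.2 FPKM lies to the right of the other 3 core subunit genes, which stand between 17.1 and 27.6 FPKM, and the 3 catalytic genes lie at 4.09 FPKM or lower.

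The demethylase genes had a median of 9.56 FPKM and the methyltransferase complex genes one of 4.09 FPKM. The difference of their medians was 1.05 on the log2(FPKM + 1) scale. With means in place of medians it was -0.07, so the sign turned. Against the 3 catalytic genes alone, a comparison chosen after the values were seen, the demethylase median lay 1.65 higher by summed rows. By the highest row it lay 0.92 higher. Of the 5 demethylase genes, 4 exceeded the highest catalytic gene, KMT2C, and KDM5C did not. By the highest row KDM5C, at 2.34 FPKM, exceeded KMT2C at 1.82 FPKM and SETD1A at 2.14 FPKM, so that all 5 demethylase genes exceeded the 3 catalytic genes.

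The same difference was set beside those of the other histone marks profiled in the series. For H3K36, the 5 demethylase genes had a median of 2.70 FPKM and the 5 methyltransferase genes one of 5.48 FPKM, a difference of -0.81. For H3K27, the 2 demethylase genes had a median of 3.06 FPKM. The 6 core genes of the methyltransferase complex had one of 50.0 FPKM, a difference of -3.76. The lists are unlike in make-up: the H3K36 methyltransferase genes are all catalytic, whereas those for H3K4 and H3K27 include other subunits. For H3K27, the core subunit genes RBBP4 and EED stood at 255.2 and 137.9 FPKM, and the catalytic EZH2 and EZH1 at 33.7 and 1.83 FPKM. How far this make-up bears on the differences was not tested. The differences for H3K4, H3K36 and H3K27 were 0.76, -1.20 and -3.46 by the highest row, with those for H3K36 and H3K27 added after seeing the data. The H3K4 difference of medians was thus positive and the other differences negative in both settings. With means the H3K4 difference was -0.07, and means were not taken for the other marks. With few genes in each list and no replicates, no test was made. Of the 10 H3K36 genes 8 were expressed, with a median of 3.56 FPKM, and of the 8 H3K27 genes all 8, with a median of 23.3 FPKM, against 9 of the 10 H3K4 genes and their median of 6.93 FPKM. The share over all gene names was 50.6%.

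Of the 36 rows 15 (41.7%) stood at 1 FPKM or more, against 30.3% of all rows of the table. From 0.1 to 1 FPKM stood 6 (16.7%), against 21.0% of all rows. Below 0.1 FPKM stood 15 (41.7%), against 48.7%, with 5 of the 36 (13.9%) below 1e-06 FPKM, against 29.4%. None was listed at exactly 0, against 17.3% of all rows, but the lowest, at 4.43e-123 FPKM, is 0 in effect. Values this small cannot stand for whole reads, so the division of a gene among its rows is an estimate and not a count.

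**Figure D4:**
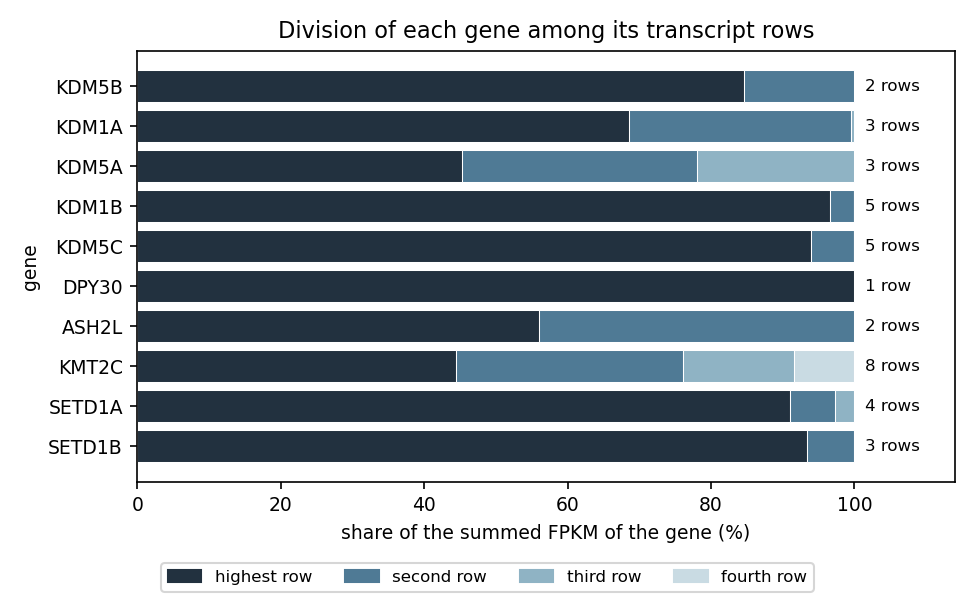
Share of each gene's summed FPKM in each of its transcript rows, the highest row darkest, with the number of rows at the right. KDM1B, KDM5C, SETD1A and SETD1B lie over 90% in 1 row, whereas the highest rows of KDM5A, KMT2C and ASH2L hold 45.2%, 44.5% and 56.0%.

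A gene with more rows has more ways to be divided, so each share was set beside those of gene names with the same number of rows and a sum of at least 0.5 FPKM. The highest row of KDM5A held 45.2%, against a median of 80.3% over 1379 gene names with 3 rows, 2.28% of which had a lower share. That of ASH2L held 56.0%, against a median of 94.1% over 2435 gene names with 2 rows, 4.58% of which had a lower share. At the other end, KDM1B (96.6%) and KDM5C (94.0%) stood against a median of 65.3% over 563 gene names with 5 rows, and exceeded 91.7% and 88.7% of them.

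The other genes lay closer to the middle. KDM1A (68.6%) and SETD1B (93.4%) had shares above 34.5% and 70.4% of the gene names with 3 rows, and KDM5B (84.6%) above 36.1% of those with 2 rows. SETD1A (91.1%) exceeded 76.2% of 862 gene names with 4 rows, whose median was 73.3%. KMT2C (44.5%) exceeded 21.8% of 94 gene names with 8 rows, whose median was 55.4%. Of the 9 genes with several rows, 4 thus lay above the median share of their class and 5 below it.

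**Figure D5:**
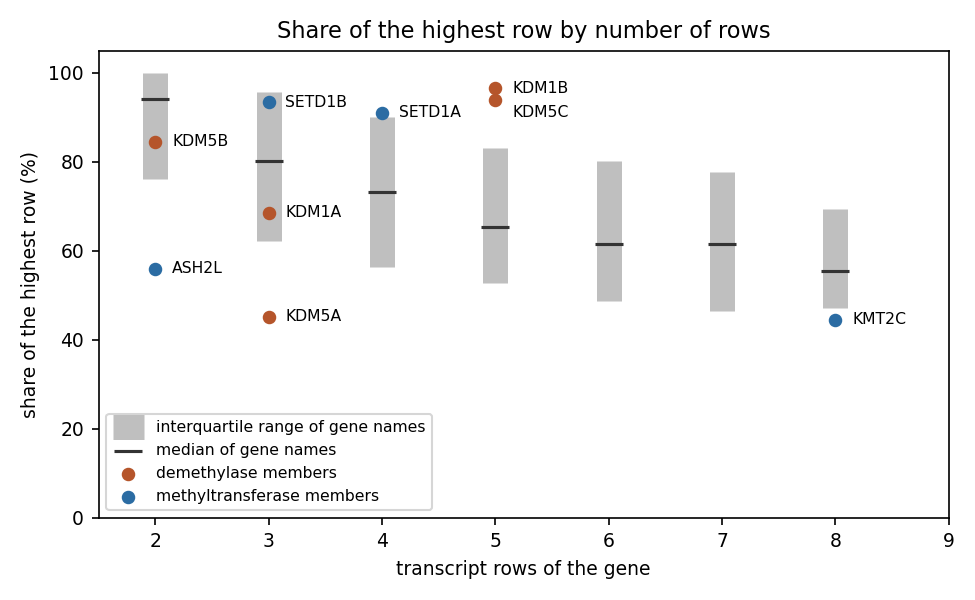
Share of the highest row against the number of rows, for the 9 genes with several rows, over the median (black line) and the interquartile range (grey bar) of gene names with as many rows. KDM5A, ASH2L and KMT2C lie below the grey bars and KDM1B, KDM5C and SETD1A above them.

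Summing the rows therefore mattered for 3 of the 10 genes. The sum was 2.25 times the highest row for KMT2C, 2.21 times for KDM5A and 1.79 times for ASH2L, and at most 1.46 times for the other 7. Among gene names with the same number of rows, KDM5B exceeded 84.4%, ASH2L 80.9% and KDM1A 77.8% in level, whereas KDM5C exceeded 46.9%, SETD1A 47.3% and SETD1B 36.1%. KDM5C and SETD1A, which lay above the middle of all gene names, thus lay just below the middle of those with 5 and 4 rows.

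The Ensembl identifier of a transcript ends in a version that rises when its model is revised. The highest row was a revised model, with a version above 1, in 7 of the 10 genes. Of the 9 with several rows 6 (66.7%) had this, against 54.3% of 5928 such gene names at 0.5 FPKM or more. The exceptions were SETD1A, SETD1B and KDM5C, whose highest rows are first versions.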

How the data were processed

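Per the file headers, the values the authors deposited are FPKM, in 1 column in which the 4 libraries were merged, per the name of the table. Libraries were made with Smart-seq2, per the labels' protocols. The submitters' processing notes name TopHat2 2.1.1 and Cufflinks 2.2.1 among tools for all data types, and susScr11 among the builds. The sources used here do not state which of them made this table, with which annotation, or whether reads or FPKM were merged. No coordinates were used here.

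FPKM depends on the annotated transcript length and on the assignment of reads to rows. Rows were summed by gene name with pandas 2.3.3 in Python 3.11.15, and all rows of each of the 10 genes were adjacent in the table. Levels are on the FPKM scale. Differences are of medians of log2(FPKM + 1), which understates the change of low genes. A rank is the percent of gene names below, ties counted by their midpoint, with no filter on low values. The code for this step was checked by multiplying the rows of some genes by known factors, which the sums returned. That checks the code and not the levels.

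The table has no replicate values, so no SD, test or interval is given, and no likeness of pattern between genes could be computed. The 10 genes and all lists were chosen with earlier results of these data known. The rule for naming took all 10 genes and, of each further list, the 4 highest and 2 lowest. It was not filled for the embryo markers, cumulus markers, H3K36 genes and H3K27 genes, of which some or all are unnamed. Other names are marked. Alternatives used the highest row, other thresholds, another pseudocount, means, scaling to a total of 1000000, a filter on low values, leaving out the closing stretch of 0 values, and leaving out DPY30. Some listed genes are not analysed here.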

Additional observations from a re-analysis of the deposited data

How the results depend on the processing

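No paired analysis was possible because the 4 libraries share 1 column, and for the same reason no library could be left out. The count of expressed genes, 9 of 10, was 9 by the highest row, 10 at 0.5 FPKM and 10 after scaling to a total of 1000000, and 5 at 5 FPKM. Over all gene names the share was 50.6%, and 48.8%, 57.9%, 62.5% and 31.1% in these settings, in the same order. The demethylase median of 9.56 FPKM was 4.32 by the highest row and 31.3 after this scaling, and the methyltransferase median of 4.09 FPKM was 2.14 and 13.4. Scaling multiplies every value by 3.28 and moves no rank. The demethylase minus methyltransferase difference of 1.05 was 0.76 by the highest row, 1.21 with a pseudocount of 0.1 FPKM and 1.35 without DPY30. It was -0.07 with means, and 1.65 against the catalytic genes alone, an alternative chosen after seeing the data. By the highest row the difference against the catalytic genes alone was 0.92. The catalytic minus core difference of -4.01 was -2.43 without DPY30 and from -4.42 to -3.87 otherwise. Of the 10 percent ranks, 5 moved by over 10 points among genes at 0.1 FPKM or more, 3 among genes with as many rows, and 0 by the highest row or without the closing zeros. No share of the highest row moved by over 10 points with rows below 0.1 FPKM left out. With depth unknown, no limit of detection can be given for SETD1B or for genes listed at 0.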

Other observations

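Proteins that bind methylated H3K4 form the step after the 10 genes, and their transcripts were described as well. Of 13 reader genes listed, 11 were measured and 7 (63.6%) were expressed, against 50.6% of all gene names. The highest was SGF29, the Tudor-domain reader of the SAGA acetyltransferase complex, at 327.1 FPKM, above 99.1% of gene names and above all 10 writer and eraser genes. Its highest row stood at 257.1 FPKM. ING3, a PHD-finger subunit of an acetyltransferase complex, stood at 33.9 FPKM, the remodeller gene CHD1 at 32.6 FPKM and SPIN1 at 13.0 FPKM. The lowest were DIDO1 at 0.597 FPKM and PHF2, a PHD-finger demethylase gene, at 0.0308 FPKM. The median of the 11 was 4.18 FPKM.

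Of 5 listed enzymes outside the KMT2 and SETD1 complexes that have been reported to methylate H3K4, 4 were measured and 2 were expressed. This share of 50.0% is near the 50.6% of all gene names. SMYD3 stood at 3.77 FPKM, SMYD2 at 1.91 FPKM and SETD7 at 0.988 FPKM. SMYD1, a gene of muscle, was listed at 0 in all 4 of its rows. RIOX1, an oxygenase reported to act on methylated H3K4, stood at 3.80 FPKM.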
